A study of Mus musculus with 12 samples.

Results

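The fibroblast growth factor (FGF) genes described here are 10 rows of the gene count table, picked by gene name from 35275 genes. They comprised 7 ligands (*Fgf2*, *Fgf7*, *Fgf9*, *Fgf10*, *Fgf16*, *Fgf18*, and *Fgf21*) and 3 receptors (*Fgfr1*, *Fgfr2*, and *Fgfr3*). The set was drawn up with it already known that *Fgf10* and *Fgf16* were nearly lost in Smad7-KO cells. The Smad7-KO values of the 10 genes are therefore given as a description, and nothing is read from how many passed a threshold. The TGF-β1 responses of the 10 genes were tested. RNA-Seq covered cultured cardiac fibroblasts of the mouse, with 3 libraries for each of 4 conditions: control and Smad7-KO cells, each left unstimulated or treated with TGF-β1 (stimulated). All cells carried *loxP*-flanked (floxed) *Smad7* on a C57BL/6 background, came from mice 12 weeks of age, and were used at passage 2. Smad7-KO cells received Cre adenovirus for 48 h at a multiplicity of infection of 100, and the control virus was a GFP adenovirus in the sample records and an empty one in the methods. Both viruses act on the whole dish, so a Smad7-KO culture can retain cells that escaped Cre. TGF-β1 was given at 10 ng/ml, for 2 h by one field of the sample records and for 4 h by another. The study set out to ask what Smad7, an inhibitory Smad that restrains TGF-β signaling, does to fibroblast gene expression.

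FGFs are secreted proteins that bind tyrosine kinase receptors on the cell surface, with heparan sulfate (or a Klotho protein, for endocrine FGFs) as cofactor. The activated receptor recruits the adaptor FRS2 and signals through RAS and ERK to ETS transcription factors and to feedback inhibitors of the Sprouty and DUSP families. In the heart, mesenchymal and epicardial cells secrete FGFs that act on neighboring cells, and the IIIb and IIIc splice forms of FGFR1 to FGFR3 decide which ligands a cell can sense. Gene counts do not separate these splice forms.

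Libraries held 19056916 to 25371321 counts (median 22660845), of which 4118 to 7433 fell on the 10 genes. *Smad7* served as a check of the labels. Its level was 71.4, 74.6, and 77.2 CPM (counts per 1e6 counts, scaled by TMM factors) in unstimulated control libraries, and 28.6, 28.4, and 31.1 CPM in unstimulated Smad7-KO libraries. With TGF-β1, it was 145, 150, and 142 CPM in control and 80.8, 70.0, and 79.5 CPM in Smad7-KO libraries. Thus 39.5% and 52.7% of the control level remained. Unstimulated control library 2 stood apart by a dependence of its counts on gene length: the log2 deviation of its genes from their mean over all libraries moved by -0.396 per doubling of length, against -0.142 to 0.143 in the remaining 11 libraries. For the 10 genes, log2 fold changes that rest on it are given with and without it. The slope with gene length also differed by genotype, from -0.396 to 0.0966 in control and from 0.0181 to 0.143 in Smad7-KO libraries. Without library 2, the lowest control slope was -0.142. Fibroblast markers summed to between 10500 and 14200 CPM in the 12 libraries, and in each Smad7-KO comparison 2 of 10 were called higher and 3 lower (adjusted p of 0.05 or less, edgeR). Of all tested genes, 25.8% were called in Smad7-KO cells without TGF-β1 (13.7% lower) and 13% with it (7.23% lower). Endothelial markers (10 genes, none at 0 in every library of a condition) summed to 285 to 336 CPM in the 6 control libraries and 46.7 to 59.1 CPM in the 6 Smad7-KO libraries. Of these endothelial genes, 7 were called lower and 1 was called higher in Smad7-KO cells, both without and with TGF-β1. Smooth muscle and pericyte markers summed to 1010 to 1820 CPM in unstimulated control and 782 to 894 CPM in unstimulated Smad7-KO libraries (4 of 8 called lower), and to 1190 to 1690 and 997 to 1090 CPM with TGF-β1 (1 of 8 called lower). Cardiomyocyte markers summed to 34.1 to 78.4 and 19 to 25.7 CPM without TGF-β1 (2 of 5 called lower), and to 29.2 to 33.6 and 19.3 to 22.4 CPM with it (0 of 5 called). Macrophage markers summed to 13800 to 22700 CPM in unstimulated control and 19900 to 22100 CPM in unstimulated Smad7-KO libraries. With TGF-β1 they summed to 13900 to 16300 CPM in control and 19000 to 21900 CPM in Smad7-KO libraries. Of these macrophage genes, 5 of 9 (unstimulated) and 4 of 9 (TGF-β1) were called higher in Smad7-KO cells. Their sums lay above the fibroblast sums of the same condition, except in unstimulated control, where the ranges overlapped. Epicardial and mesothelial markers summed to 458 to 495 CPM in unstimulated and 414 to 417 CPM in stimulated control libraries, and to 364 to 420 and 325 to 341 CPM in the corresponding Smad7-KO libraries, with 4 and 2 of 8 called lower and 1 called higher each time. These marker shifts, some higher and some lower, fell in the same comparisons as the Smad7-KO values below, and their part in those values was not tested. In bulk libraries, fewer cells of a type and less RNA per cell cannot be told apart.

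*Fgf10* encodes a ligand that mesenchymal cells send to epithelial cells and that activates the IIIb form of FGFR2. Its gene lies on chr13:118669791-118792115 (plus strand, GRCm38 as in the count table). The unstimulated control libraries held 64, 80, and 92 *Fgf10* counts (2.87, 4.57, and 3.88 CPM), and the unstimulated Smad7-KO libraries held 7, 3, and 2 counts (0.347, 0.129, and 0.0868 CPM). With TGF-β1, control libraries held 72, 62, and 61 counts (2.91, 2.52, and 2.96 CPM), and Smad7-KO libraries held 2, 2, and 1 counts. The lowest of the 6 control libraries (2.52 CPM) lay well above the highest of the 6 Smad7-KO libraries (0.347 CPM). The summed Smad7-KO level was 4.85% of control in unstimulated cells (95% interval 2.47% to 8.64%, exact, from 12 and 236 counts) and 2.62% with TGF-β1 (0.842% to 6.22%, from 5 and 195 counts). These intervals cover counting error only. An antisense gene, *Gm16263*, shares 123 exonic bases with *Fgf10*; whether the counting used strand was not stated, so a small share of reads is uncertain.

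*Fgf16*, a member of the FGF9 subfamily known for its expression in the heart, lies on chrX:105764279-105774939 (plus strand). It was the scarcest of the 10 genes. The unstimulated control libraries held 22, 11, and 17 *Fgf16* counts (0.986, 0.629, and 0.717 CPM), and the unstimulated Smad7-KO libraries held 2, 2, and 1. With TGF-β1, control libraries held 11, 16, and 8 counts, and Smad7-KO libraries held 0, 2, and 0. The groups did not overlap. The Smad7-KO level was 9.55% of control in unstimulated cells (95% interval 2.97% to 23.8%, 5 and 50 counts) and 5.84% with TGF-β1 (0.681% to 22.7%, 2 and 35 counts). Both intervals overlap those of *Fgf10*. Both genes passed the filter on low counts through their control libraries alone, so a difference was built into their being measured.

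*Fgf18*, a ligand of the FGF8 subfamily that acts on the mesenchymal forms of FGFR2 and FGFR3 and is best known from bone and lung, kept the next smallest share of its level among the ligands. It lies on chr11:33117430-33147400 (minus strand). Its level was 29.9, 32.4, and 24.9 CPM in unstimulated control libraries and 11.4, 8.93, and 9.46 CPM in unstimulated Smad7-KO libraries. With TGF-β1, *Fgf18* stood at 27.5, 33.3, and 25.9 CPM in control and at 12.5, 14.3, and 17.5 CPM in Smad7-KO libraries. All 6 control libraries were above all 6 Smad7-KO libraries. The Smad7-KO mean was 34.1% of control in unstimulated cells (log2 fold change -1.55, SE 0.168) and 51.0% with TGF-β1 (-0.97, SE 0.164). *Fgf18* is short (1086 bases), and removal of a smooth trend of the counts with gene length brought these log2 fold changes to -1.10 and -0.72.

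*Fgf7* (keratinocyte growth factor), the closest relative of *Fgf10* and likewise a mesenchymal ligand of the IIIb form of FGFR2, lies on chr2:126034658-126091185 (plus strand). Its level was 26.4, 29.2, and 30.3 CPM in control libraries without TGF-β1 and 16.7, 12.6, and 15.2 CPM with it. In Smad7-KO cells, it was 17.3, 17.7, and 17.9 CPM without TGF-β1 and 9.25, 9.003, and 8.26 CPM with it. The 4 conditions thus fell into 4 ranges that did not overlap, highest in unstimulated control and lowest in stimulated Smad7-KO cells. Smad7-KO cells held 61.6% of the control level without TGF-β1 (log2 fold change -0.70, SE 0.120) and 59.7% with it (-0.74, SE 0.123).

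The other 3 ligands did not separate by genotype. *Fgf2* (basic FGF), a ligand made without a signal peptide by many cell types, was at 1.93, 0.743, and 3.92 CPM in unstimulated control and 3.22, 2.88, and 3.90 CPM in unstimulated Smad7-KO libraries. With TGF-β1 it stood at 6.63, 2.60, and 3.11 CPM in control and 5.39, 7.19, and 5.00 CPM in Smad7-KO libraries. *Fgf2* was the single member with a higher mean in Smad7-KO cells (log2 fold change 0.57, SE 0.483, without and 0.51, SE 0.454, with TGF-β1), and the groups overlapped both times. The value without TGF-β1 was 0.19 when unstimulated control library 2 was left out and 1.28 without library 3. In GENCODE M21, exons of *Fgf2* share 640 bases with *Nudt6* on the opposite strand. That annotation gives *Fgf2* another interval and 6782 exonic bases, against a deposited length of 1240 bases. How much of the overlap lies in the counted exons is therefore uncertain. *Fgf9*, another ligand of the FGF9 subfamily, ranged from 2.87 to 4.34 CPM in unstimulated control and from 2.02 to 4.16 CPM in unstimulated Smad7-KO libraries. *Fgf21*, an endocrine FGF that needs the coreceptor β-Klotho, ranged from 0.886 to 3.89 CPM in unstimulated control and from 0.694 to 2.02 CPM in Smad7-KO libraries without TGF-β1. For *Fgf21*, the log2 fold change of -0.73 (SE 0.479) was -0.14 without unstimulated control library 2 and -1.12 without library 3.

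Among the receptors, *Fgfr2*, which lies on chr7:130162451-133123350 (minus strand), was at 46.0, 40.5, and 62.8 CPM in unstimulated control and 28.5, 28.3, and 26.9 CPM in unstimulated Smad7-KO libraries. With TGF-β1 it stood at 34.1, 32.2, and 29.5 CPM in control and 20.4, 22.3, and 20.4 CPM in Smad7-KO libraries. *Fgfr2*, like *Fgf7*, had 4 ranges that did not overlap. Its Smad7-KO level was 56.1% of control without TGF-β1 (log2 fold change -0.84, SE 0.145) and 65.9% with it (-0.60, SE 0.146). The annotated interval of *Fgfr2* is unusually long because of read-through transcripts, and 314 of its exonic bases are shared with *Ctbp2* on the same strand.

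*Fgfr3*, on chr5:33721724-33737068 (plus strand), a receptor known for restraining bone growth, was at 4.39, 2.23, and 4.68 CPM in unstimulated control and 1.83, 2.19, and 1.56 CPM in unstimulated Smad7-KO libraries. Unstimulated control library 2, at 2.23 CPM, came close to the highest Smad7-KO library, at 2.19 CPM. With TGF-β1, *Fgfr3* stood at 4.57, 3.99, and 4.28 CPM in control and 1.88, 2.22, and 1.70 CPM in Smad7-KO libraries. The Smad7-KO level was 49.4% and 45.1% of control (log2 fold changes -1.02, SE 0.267, and -1.15, SE 0.264), and -1.28 without unstimulated control library 2 in the former comparison. *Fgfr3* shares 998 exonic bases (13.9%) with *G630022F23Rik*. *Fgfr1*, on chr8:25513654-25575714 (plus strand), the main receptor of mesenchymal cells, was at 147, 143, and 179 CPM in unstimulated control and 137, 142, and 139 CPM in unstimulated Smad7-KO libraries. These ranges were separate by a narrow margin, with log2 fold changes of -0.17 (SE 0.104) without and -0.28 (SE 0.103) with TGF-β1. After removal of the length trend they were -0.44 and -0.42.

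**Figure D1:**
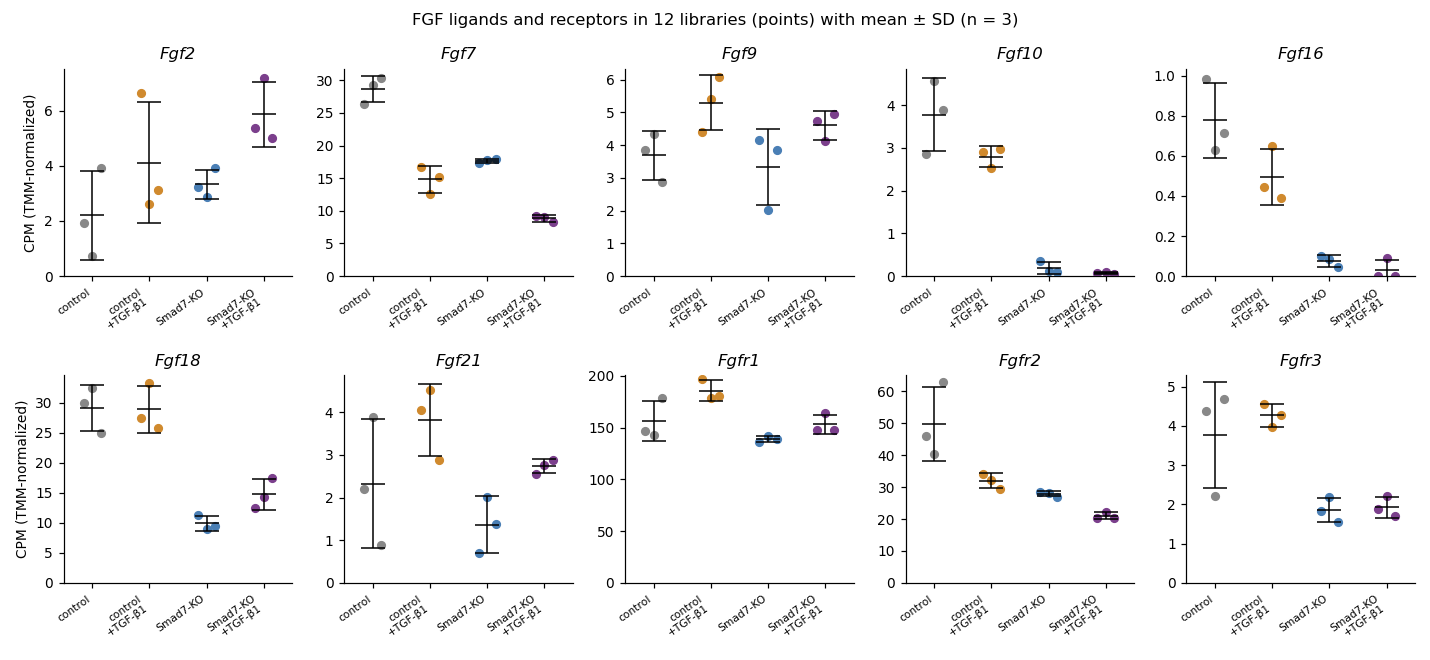
CPM (TMM-normalized, y axis from 0) of each gene in each of the 12 libraries (points), with the mean and SD of the 3 libraries per condition (horizontal ticks and bars). Control is the group with the control adenovirus (GFP in the sample records, empty in the methods). *Fgf10* and *Fgf16* fall close to 0 in the Smad7-KO conditions, *Fgf7* and *Fgfr2* fall into 4 separate ranges, and *Fgf2*, *Fgf9*, and *Fgf21* overlap between genotypes.

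In all, 9 of the 10 genes had a lower mean in Smad7-KO cells in both comparisons. In unstimulated cells, 6 (*Fgf7*, *Fgf10*, *Fgf16*, *Fgf18*, *Fgfr2*, and *Fgfr3*) had an adjusted p of 0.05 or less, where 25.8% of all tested genes did (13.7% lower). The same 6 genes did so with TGF-β1, where 13% of all tested genes did (7.23% lower). The median log2 fold change of the 10 genes was -0.78 (all tested genes -0.0155) without TGF-β1 and -0.67 (all tested genes -0.0206) with it. The genes were chosen on this contrast, and *Fgf10* and *Fgf16* passed the filter on low counts through their control libraries alone, so nothing is read from these counts. With each library left out in turn, these counts ran from 5 to 8 without and from 4 to 7 with TGF-β1; the 8 were reached without unstimulated control library 3, when *Fgf2* (higher) and *Fgf21* (lower) joined the 6. Over the 9 other settings they ran from 3 to 7 and from 4 to 7. Genes called in the whole table ran from 1535 to 7979 and from 883 to 4465 over the omissions. Over the 9 other settings, the whole table gave 660 to 5139 and 1500 to 4605. *Fgfr3* dropped out in unstimulated cells when only the 6 libraries were fitted in edgeR and without unstimulated Smad7-KO library 1. Without unstimulated control library 2, the count among the 10 genes in unstimulated cells was 6, and the log2 fold changes were -4.17 for *Fgf10*, -3.40 for *Fgf16*, -1.47 for *Fgf18*, -0.68 for *Fgf7*, -0.0062 for *Fgf9*, -0.96 for *Fgfr2*, and -0.23 for *Fgfr1*. Short genes were lower more often than long ones in Smad7-KO cells: of the genes called in unstimulated cells, 13.5% were higher among short genes (up to 2250 bases), 45.5% among genes of middle length, and 79.2% among long genes (from 3896 bases), with equal numbers of tested genes in each class but for ties. With TGF-β1, a comparison that does not set unstimulated control library 2 against Smad7-KO cells, these shares were 19.9%, 42.5%, and 63.4%. By the deposited gene lengths, *Fgf2*, *Fgf16*, *Fgf18*, and *Fgf21* are short, *Fgf7* and *Fgf9* are of middle length, and *Fgf10* and the 3 receptors are long. With the length trend removed, *Fgf10* was at -4.50, *Fgf16* at -2.99, *Fgf7* at -0.63, *Fgfr2* at -1.02, and *Fgfr3* at -1.18 (log2 fold change, unstimulated). The libraries did not overlap between genotypes for 7 of the 10 genes (the 6 above and *Fgfr1*), lower in Smad7-KO cells each time, where 41.3% of all tested genes did not overlap without TGF-β1 and 44.9% with it.

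**Figure D2:**
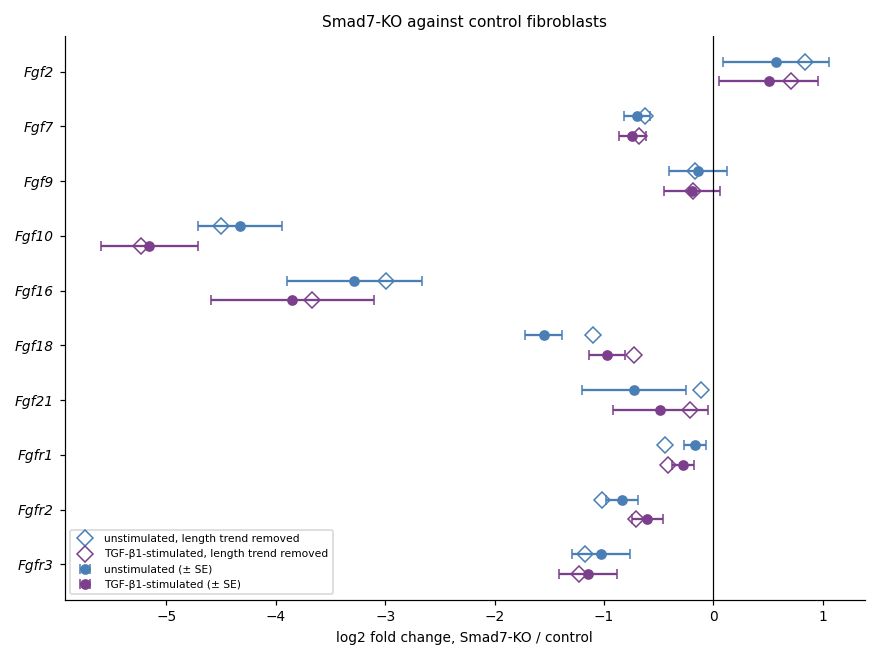
Log2 fold change of Smad7-KO against control for each gene (x axis), unstimulated and with TGF-β1, with the SE from edgeR as bars; open diamonds give the value after removal of the length trend. *Fgf10* (-4.33 and -5.16) and *Fgf16* (-3.28 and -3.85) lie far from the other 8 genes, whose values run from -1.55 to 0.57; fitted values of *Fgf10* and *Fgf16* rest on few Smad7-KO counts.

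The second question was how the 10 genes answered TGF-β1. *Fgf7* fell in both genotypes. In control cells, it dropped to 51.7% of the unstimulated level (log2 fold change -0.95, SE 0.121, adjusted p = 3.71e-04, edgeR quasi-likelihood test over 15150 genes), and in Smad7-KO cells to 50.1% (-0.997, SE 0.123, adjusted p = 2.56e-04). All 3 stimulated libraries were below all 3 unstimulated ones in each genotype. The difference between the 2 responses was -0.04 (SE 0.171, adjusted p = 0.982).

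*Fgfr2*, the receptor of FGF7 and FGF10, fell to 64.2% in control cells (log2 fold change -0.64, SE 0.144, adjusted p = 0.0162). In Smad7-KO cells it stood at 75.4% of the unstimulated level (-0.41, SE 0.146, adjusted p = 0.117), with all 3 stimulated libraries again below the unstimulated ones. The difference between the responses, 0.23 (SE 0.205, adjusted p = 0.98) did not pass the test. The call in control cells was lost without TGF-β1 control library 2 (adjusted p = 0.0517) or library 3 (0.0884), and when only the 6 control libraries were fitted (0.179). The Smad7-KO value passed the test without unstimulated control library 2 (adjusted p = 0.0342) or 3 (0.0146), which enter through the shared estimate of the spread. It also passed when only the 6 Smad7-KO libraries were fitted in edgeR (adjusted p = 0.00228).

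These 2 genes were the only members called in control cells (2 of 10; 8.37% of all tested genes were called, and 3.33% were called lower), and *Fgf7* was the only one called in Smad7-KO cells (1 of 10; 10.2% of all tested genes, 4.9% lower). Without unstimulated control library 2, the values in control cells were -0.94 (adjusted p = 3.87e-04) for *Fgf7* and -0.77 (adjusted p = 0.00132) for *Fgfr2*. Of the 8 genes that were not called, *Fgf2* then stood at 0.49, *Fgf9* at 0.65, *Fgf10* at -0.27, *Fgf16* at -0.77, *Fgf18* at 0.075, *Fgf21* at 1.32, *Fgfr1* at 0.19, and *Fgfr3* at -0.087, and none passed the test. The comparisons with TGF-β1 and those with Smad7-KO share libraries, so their values stand side by side and are not independent.

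*Fgf18* differed little with TGF-β1 in control cells (99.3% of the unstimulated level; log2 fold change -0.0081, SE 0.161, adjusted p = 0.985) and stood at 149% in Smad7-KO cells (0.57, SE 0.167, adjusted p = 0.0513). In Smad7-KO cells, the 3 stimulated libraries (12.5 to 17.5 CPM) were above the unstimulated ones (8.93 to 11.4 CPM). This value passed the test in DESeq2 (adjusted p = 0.0169) and without unstimulated control library 2 (0.0202), unstimulated control library 3 (0.0269), or TGF-β1 Smad7-KO library 1 (0.0470). The difference between the responses of *Fgf18* was 0.58 (SE 0.232; unadjusted p = 0.0286, adjusted p = 0.98, edgeR), which did not pass the test. None of the 10 genes had a difference between the responses called by edgeR or by DESeq2, 1 of 10 had an unadjusted p under 0.05 in edgeR, and 3 genes of the whole table (0.0198%) were called.

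The remaining genes did not pass the test in either genotype in the fit of all 12 libraries. *Fgf2* had TGF-β1 log2 fold changes of 0.88 (SE 0.478, adjusted p = 0.348) in control and 0.81 (SE 0.461, adjusted p = 0.390) in Smad7-KO cells. *Fgf21* stood at 4.04, 4.52, and 2.87 CPM in TGF-β1 control and 2.55, 2.76, and 2.88 CPM in stimulated Smad7-KO libraries, with log2 fold changes of 0.74 (adjusted p = 0.400) and 0.98 (adjusted p = 0.270). With the length trend removed, the *Fgf21* value in control cells was 1.12 (adjusted p = 0.0343). In an edgeR fit of the 6 Smad7-KO libraries alone, the adjusted p was 0.00436 for *Fgf2* and 0.0264 for *Fgf21*. All stimulated Smad7-KO libraries were above the unstimulated ones for both genes. *Fgf9* reached 4.41, 5.41, and 6.07 CPM in TGF-β1 control libraries, above the unstimulated range, with a log2 fold change of 0.53 (adjusted p = 0.291). The stimulated libraries of *Fgfr1* lay above the unstimulated ones in control cells, by a narrow margin (lowest 178.8 CPM against highest 178.6 CPM; log2 fold change 0.25, adjusted p = 0.195), and in Smad7-KO cells (0.14, adjusted p = 0.561). Without unstimulated control library 3, the *Fgf2* (adjusted p = 0.0309) and *Fgfr1* (0.0193) values in control cells passed the test. Separation of stimulated from unstimulated libraries, in either direction, held for 4 of the 10 genes in control cells (19.8% of all tested genes) and for 6 in Smad7-KO cells (39% of all tested genes). *Fgfr3* had values of 0.17 (adjusted p = 0.751) and 0.05 (adjusted p = 0.968). In control cells, *Fgf10* had a TGF-β1 level of 75.1% (95% interval 61.8% to 91.2%, counting error only; log2 fold change -0.43, SE 0.281, adjusted p = 0.447) and *Fgf16* one of 63.6% (40.1% to 100%; adjusted p = 0.487). In Smad7-KO cells, the *Fgf10* counts (5 against 12) gave a ratio of 40.5% (11.2% to 124%), and *Fgf16* was too scarce for a ratio.

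**Figure D3:**
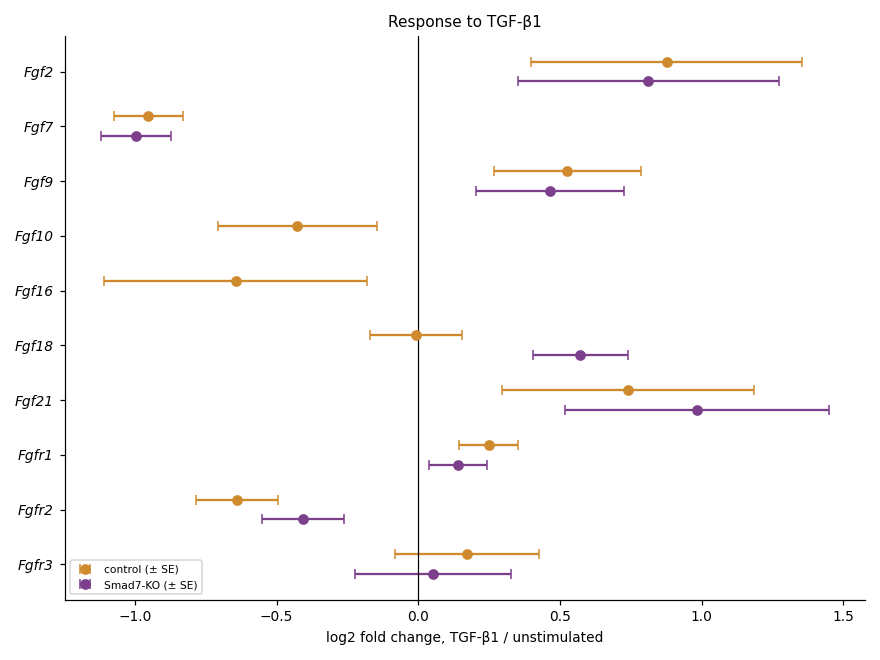
Log2 fold change of TGF-β1 against unstimulated cells for each gene (x axis) in control and Smad7-KO fibroblasts, with the SE from edgeR as bars; Smad7-KO values of *Fgf10* and *Fgf16* are left out because their libraries held at most 7 counts. *Fgf7* lies at -0.95 (control) and -0.997 (Smad7-KO), and *Fgf18* is at -0.0081 in control and 0.57 in Smad7-KO cells.

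On a scale per gene length (FPKM, fragments per kilobase scaled to library depth), the 7 ligands together summed to 43.9 ± 1.32 (SD, n = 3) in unstimulated control and 21.2 ± 0.899 in unstimulated Smad7-KO libraries. With TGF-β1, the sums were 42.7 ± 3.79 and 25.6 ± 2.14 FPKM. *Fgf18* was the most abundant ligand in every condition: it held 60.3% ± 3.46 of the ligand FPKM and 63.0% ± 5.00 in control libraries without and with TGF-β1, and 43.3% ± 4.13 and 51.9% ± 5.09 in Smad7-KO libraries. *Fgf7* held 24.3% ± 3.09 and 31.5% ± 1.60 in unstimulated control and Smad7-KO cells, and 13.2% ± 2.48 and 12.8% ± 1.80 with TGF-β1. *Fgf2* held 4.19% ± 3.32 in unstimulated control and 12.8% ± 1.74 in unstimulated Smad7-KO libraries, and 7.86% ± 3.97 and 18.3% ± 3.66 with TGF-β1. *Fgf10* and *Fgf16* were small parts of the ligand total already in unstimulated control cells, at 2.07% ± 0.416 and 1.08% ± 0.290. In unstimulated cells, *Fgf18* went from 26.5 ± 2.29 FPKM in control to 9.21 ± 1.20 FPKM in Smad7-KO libraries and *Fgf7* from 10.7 ± 1.02 to 6.66 ± 0.0945 FPKM, so these 2 genes carried most of the lower ligand sum. The 3 receptors summed to 43.1 ± 9.05 FPKM in unstimulated control and 34.6 ± 0.559 FPKM in unstimulated Smad7-KO libraries. *Fgfr1* held 72.1% ± 2.36 and 81.8% ± 0.603 of the receptor FPKM in control cells without and with TGF-β1, and 80.4% ± 0.603 and 85.4% ± 0.0577 in Smad7-KO cells. *Fgfr2* held 25.9% ± 2.01 and 16% ± 0.656 in control cells, and 18.4% ± 0.557 and 13.4% ± 0.153 in Smad7-KO cells. These shares are a description, and FPKM carries the dependence on gene length noted above.

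**Figure D4:**
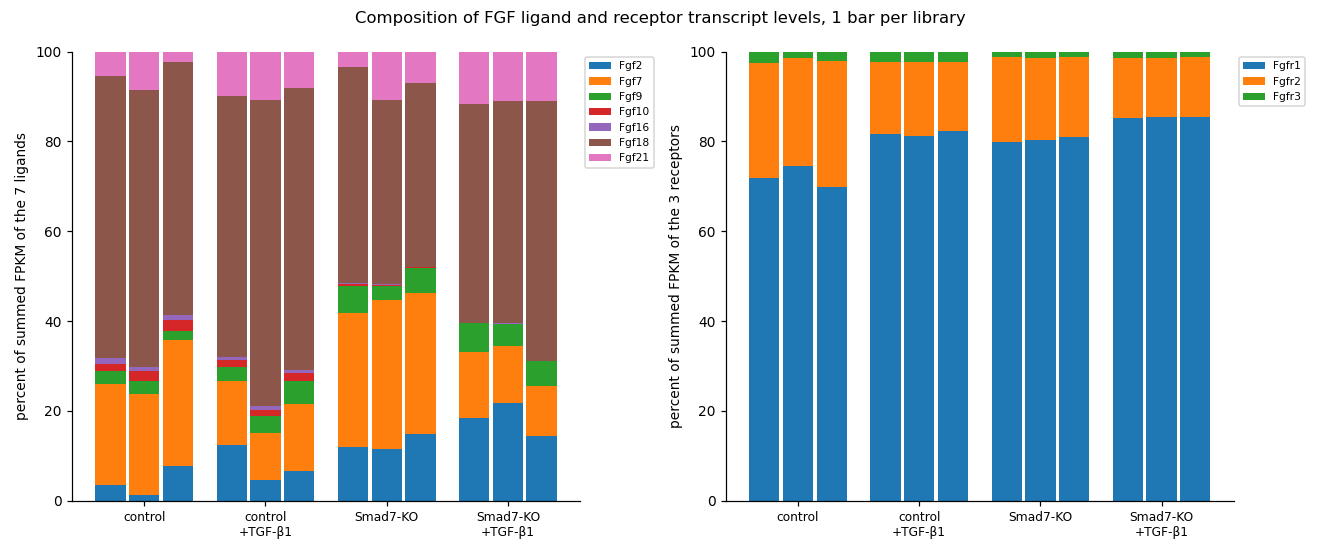
Percent of the summed FPKM (y axis, 0 to 100) held by each of the 7 ligands (left) and each of the 3 receptors (right), with 1 bar per library in the 4 conditions. *Fgf18* forms the widest band among ligands (60.3% on average in unstimulated control, 43.3% in unstimulated Smad7-KO cells), and *Fgfr1* forms the widest among receptors (72.1% to 85.4%).

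Promoter sequences are shown for the 3 ligands that stood lowest relative to control or that answered TGF-β1 and for which a window outside annotated exons could be read: *Fgf10*, *Fgf18*, and *Fgf7*. Each is the 250 bases before the RefSeq start of transcription (GRCm38.p6), read 5′ to 3′ along the gene. Capitals mark the 4-base core that Smad proteins bind, AGAC, or its reverse complement GTCT. The *Fgf10* window is chr13:118714449-118714698 (plus strand, within the annotated gene interval, which starts further upstream), that of *Fgf18* is chr11:33147401-33147650 (minus strand), and that of *Fgf7* is chr2:126034408-126034657 (plus strand).
Fgf10: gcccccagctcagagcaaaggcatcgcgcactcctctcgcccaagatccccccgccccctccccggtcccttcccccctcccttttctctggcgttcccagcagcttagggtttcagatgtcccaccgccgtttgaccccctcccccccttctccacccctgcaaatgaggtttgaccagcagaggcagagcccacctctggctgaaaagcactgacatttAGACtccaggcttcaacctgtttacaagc
Fgf18: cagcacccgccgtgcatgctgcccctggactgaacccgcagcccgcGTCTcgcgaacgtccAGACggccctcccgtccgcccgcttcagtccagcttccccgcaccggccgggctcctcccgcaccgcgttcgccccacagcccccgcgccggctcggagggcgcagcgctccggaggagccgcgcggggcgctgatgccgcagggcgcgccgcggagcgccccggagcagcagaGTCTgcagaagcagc
Fgf7: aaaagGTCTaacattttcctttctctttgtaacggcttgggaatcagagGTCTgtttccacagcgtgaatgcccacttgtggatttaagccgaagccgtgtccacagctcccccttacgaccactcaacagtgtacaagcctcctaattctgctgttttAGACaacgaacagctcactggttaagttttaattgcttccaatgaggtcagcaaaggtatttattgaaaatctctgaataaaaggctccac
The *Fgf10* window held 1 AGAC match, and the *Fgf18* and *Fgf7* windows held 3 each, on either strand. AGAC was present in 82.9% of 32851 promoter windows of the same length, so its presence sets none of them apart. The extended element CAGACA (17.1% of windows, each match also an AGAC match), the AP-1 element TGANTCA (6.75%), and the TATA box TATAAA (12.4%) had no match in these 3 windows. A GC box (GGGCGG, 32.7%) matched once in the *Fgf10* and once in the *Fgf18* window, and an E-box (CANNTG, 66.2%) matched 2 times for *Fgf10* and once for *Fgf7*. The windows differed in base composition, with a GC content of 61.2% for *Fgf10*, 77.2% for *Fgf18*, and 43.6% for *Fgf7*. A match describes the letters of the window alone. In the RefSeq promoter table, 8 of the 10 genes were matched.

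The rest of the FGF system was taken from 4 lists with 54 genes, of which 40 passed the filter on low counts. In unstimulated cells, 10 of 40 (25%) were called in Smad7-KO against control, close to the 25.8% of all tested genes, with 5 higher and 5 lower. With TGF-β1, 6 of 40 (15%) were called, against 13% of all tested genes, with 3 higher and 3 lower. Among the other receptors and surface partners (5 of 9 tested), *Fgfrl1*, an FGF receptor without a kinase domain, was 77.7 ± 3.19 CPM in unstimulated control and 42.0 ± 4.25 CPM in unstimulated Smad7-KO libraries (SD, n = 3). Its log2 fold change was -0.89 (SE 0.127, adjusted p = 0.00103, edgeR) without and -0.87 (SE 0.126, adjusted p = 0.00135) with TGF-β1. *Fgfrl1* was also the one gene of the lists called higher with TGF-β1 in both genotypes (0.48, adjusted p = 0.0347, in control and 0.49, adjusted p = 0.0271, in Smad7-KO cells). The TGF-β1 calls of *Fgfrl1* were lost in 5 (control) and 4 (Smad7-KO) of 12 fits that each left out 1 library (adjusted p up to 0.135 in both), whereas its Smad7-KO calls held in all 12. *Flrt3*, a transmembrane partner of FGF receptors, fell by 0.96 (adjusted p = 0.00434) and 0.87 (adjusted p = 0.00823) on the log2 scale in Smad7-KO cells. *Fgfr4* and the Klotho coreceptors *Kl* and *Klb* did not pass the filter, with at most 20, 6, and 7 counts over the 3 libraries of any condition.

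None of the 5 tested genes of the list of other ligands and intracellular FGFs (*Fgf1*, *Fgf11*, *Fgf13*, *Fgf14*, and *Fgf23*) was called by edgeR in the comparisons of genotype or TGF-β1. Of these genes, 1 had an unadjusted p under 0.05 (edgeR) in Smad7-KO against control without TGF-β1 and 2 with it. The lowest, *Fgf14*, had a log2 fold change of -1.56 (SE 0.569, adjusted p = 0.061) in unstimulated cells. DESeq2 called 1 gene of this list lower there and none in the other comparisons.

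Among the 19 adaptors and relay proteins between receptor and ERK, 6 (31.6%) were called in unstimulated Smad7-KO cells, against 25.8% of all tested genes. With TGF-β1, 2 (10.5%) were called, against 13%. Nothing is read from these counts. Without TGF-β1, the genes were as follows. *Grb2*, the adaptor that brings SOS to the receptor, rose (log2 fold change 0.50, SE 0.0815, adjusted p = 0.00222), as did *Sos1* (0.61, adjusted p = 0.0496) and *Sos2* (0.53, adjusted p = 0.0362), the exchange factors of RAS. *Hras* (-0.78, adjusted p = 0.0436) and *Map2k2*, which encodes MEK2 (-0.77, adjusted p = 0.0387), fell. The calls of *Sos1*, *Sos2*, *Hras*, and *Map2k2* were lost without unstimulated control library 2 (adjusted p of 0.12, 0.0812, 0.115, and 0.095), and in all were lost in 10, 8, 11, and 9 of 12 fits that left out 1 library. With the length trend removed, *Sos1* stood at 0.11 (adjusted p = 0.363), and with the replicate block added *Sos2* stood at 0.22 (adjusted p = 0.0732). With TGF-β1 present, *Grb2* (0.29, adjusted p = 0.0344) was again higher in Smad7-KO cells, but this call was lost in 9 of 12 fits that left out 1 library (adjusted p up to 0.114), whereas its call without TGF-β1 was kept in all 12. Among the 11 feedback and ETS genes, *Dusp6*, a phosphatase of ERK, rose without (0.38, SE 0.0851, adjusted p = 0.0106) and with TGF-β1 (0.46, SE 0.0851, adjusted p = 0.00542), whereas *Etv4*, an ETS factor downstream of FGF receptors, fell (-0.89, adjusted p = 0.0166, and -0.75, adjusted p = 0.0409). The *Dusp6* call was lost in 1 of 12 such fits without TGF-β1 (adjusted p = 0.0507, without unstimulated Smad7-KO library 2) and in none with it, and the *Etv4* call was lost in 2 and 9 (adjusted p up to 0.0693 and 0.158). In an edgeR fit of the 6 unstimulated libraries alone, the calls of *Grb2*, *Sos1*, *Sos2*, *Hras*, *Map2k2*, *Dusp6*, and *Etv4* were lost, with adjusted p from 0.0601 (*Grb2*) to 0.151 (*Hras*). *Dusp6* and *Etv4* are both usual readouts of FGF signaling, and they moved in opposite directions.

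In response to TGF-β1, 4 of 40 (10%) were called in control and 5 of 40 (12.5%) in Smad7-KO cells, against 8.37% and 10.2% of all tested genes. *Gab1*, an adaptor that links FGF receptors to PI3K and SHP2, fell in both: from 73.3 ± 4.01 to 40.7 ± 0.144 CPM in control (log2 fold change -0.85, SE 0.0811, adjusted p = 5.22e-05) and from 74.0 ± 0.765 to 38.3 ± 0.665 CPM in Smad7-KO cells (-0.95, SE 0.0813, adjusted p = 1.99e-05). In control cells, *Map2k1*, which encodes MEK1 (0.42, adjusted p = 0.0104), and the feedback inhibitor *Spry1* (0.58, adjusted p = 0.0119) rose. In Smad7-KO cells, *Grb2* (-0.33, adjusted p = 0.0238), the RAS-ERK inhibitor *Spred1* (-0.68, adjusted p = 0.0178), and the ETS factor *Etv5* (-0.47, adjusted p = 0.0190) fell. The calls of *Gab1* and *Map2k1* held in all 12 fits that left out 1 library, that of *Spry1* was lost in 1 (adjusted p = 0.0565, without TGF-β1 control library 3), and those of *Grb2*, *Spred1*, and *Etv5* were lost in 5 each (adjusted p up to 0.127, 0.081, and 0.0812). In an edgeR fit of the 6 control libraries alone, *Map2k1* (adjusted p = 0.189), *Spry1* (0.154), and *Fgfrl1* (0.173) were not called. None of the 40 had a difference between the 2 responses called by edgeR or by DESeq2, and 0 had an unadjusted p under 0.05 in edgeR. Without unstimulated control library 2, the calls among these genes were 9 and 12 in the 2 Smad7-KO comparisons and 8 each in the 2 TGF-β1 comparisons.

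**Figure D5:**
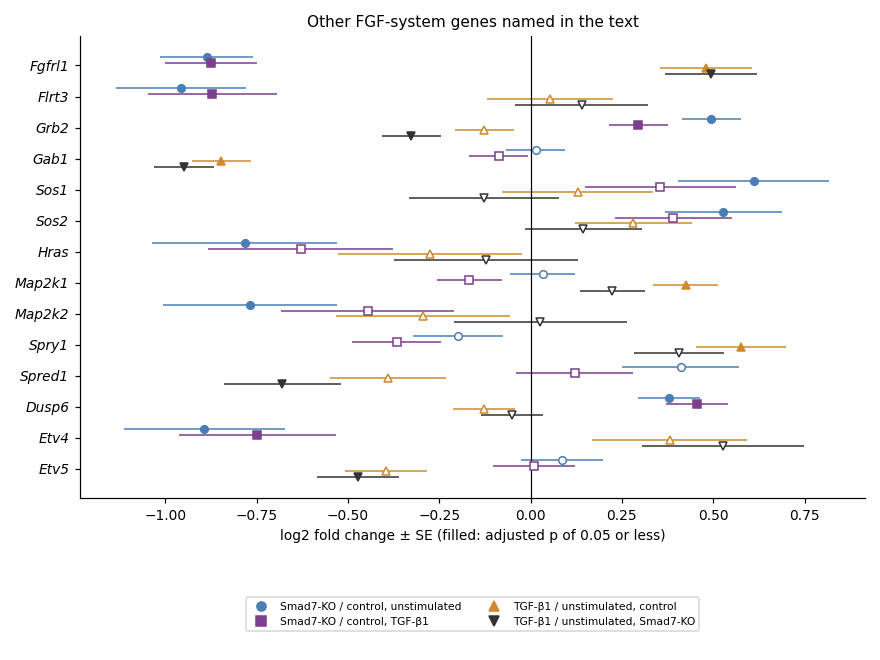
Log2 fold change with SE (x axis) of the other FGF-system genes named in the text as called in at least 1 of the 4 comparisons; filled symbols mark an adjusted p of 0.05 or less. *Fgfrl1* is lower in Smad7-KO cells and higher with TGF-β1, *Gab1* is lower with TGF-β1 in both genotypes, and *Dusp6* and *Etv4* lie on opposite sides of 0 for Smad7-KO.

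Across the 12 libraries, the genes whose log2 CPM followed that of *Fgf10* most closely, among 12203 genes, were *Serpinb6b* (Pearson's r = 0.988), *Sema3f* (0.986), *Gpm6a* (0.986), *Serpinb9b* (0.985), and *Epdr1* (0.982). Those closest to *Fgf16* were *Hid1* (0.976), *Lbp* (0.972), *Cav1* (0.97), *Foxc1* (0.97), and *Gata6* (0.969). Among the 10 genes themselves, *Fgf10* and *Fgf16* were most alike (0.956), and *Fgf2* and *Fgf7* were least alike (-0.652). For the other members, the closest genes were *Fam160b1* and *Dock5* for *Fgf2* (both 0.977), *Maoa* (0.975) and *Angpt2* (0.974) for *Fgf7*, *Tor1b* (0.889) and *Ddx27* (0.872) for *Fgf9*, *Pemt* (0.982) and *Ctla2a* (0.979) for *Fgf18*, and *Mak16* (0.941) and *Gal3st1* (0.921) for *Fgf21*. For the receptors, they were *Rnf145* (0.961) and *Mst1r* (0.959) for *Fgfr1*, *Serpinb9* (0.977) and *Whamm* (0.97) for *Fgfr2*, and *Ano1* (0.974) and *Arhgef28* (0.969) for *Fgfr3*. The 12 points share 4 conditions and the depth of each library, and a gene that separates the same conditions ranks high by that alone.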

How the data were processed

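Libraries were prepared from poly(A) RNA with a kit whose strand handling was not stated, and sequenced on an Illumina HiSeq instrument as paired-end reads. The submitters' processing notes name CASAVA, TopHat2 2.0, HTSeq 0.6.1, and Cufflinks 2.1.1, with mm10 and GRCm38.p6 as builds. The deposited table holds whole-number counts per gene and FPKM values made by the authors; FPKM equaled count over gene length and library total in all 423300 values (relative tolerance 0.001). Counts were tested with edgeR 4.0.16 (R 4.3.3; TMM factors, filterByExpr with a minimum count of 10, robust quasi-likelihood fit of all 12 libraries), with Benjamini-Hochberg adjustment over 15150 of 35275 genes and an adjusted p of 0.05 or less as the threshold. All 10 genes passed the filter. The fit recovered planted changes in simulated counts that had the same spread in every library and no trend with gene length. Changes were planted in well-counted genes alone, so the simulation does not show how the fit handles scarce genes, unequal spread, or a length trend. Alternatives were DESeq2 1.42.0, limma 3.58.1 on log2(FPKM + 1), other size factors, no filter, fits of 6 libraries, a replicate block, removal of a loess trend (span 0.3) with gene length, and omission of each library. The paper's tool was DESeq2, run here as an alternative.

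The members and lists were chosen with earlier results of these data known. Named genes were the 10 members, called genes of the 4 lists (up to 8 per list), *Smad7*, and the genes closest to each member by Pearson correlation (5 for *Fgf10* and *Fgf16*, 2 for the others, average log2 CPM of at least 1). *Fgf14* and the untested *Fgfr4*, *Kl*, and *Klb* were named after their values were seen. The counts of called genes include 1 gene of the lists that is not reported here. Replicates were 3 samples per condition that the records call independent. Nothing says whether they came from separate animals, so p-values measure the spread between these samples. That spread, as a coefficient of variation beyond counting noise, was 0.334 in unstimulated and 0.137 in TGF-β1 control libraries. In Smad7-KO libraries it was 0.0529 without and 0.0995 with TGF-β1. The main fit shares 1 estimate per gene over these unequal conditions, whereas fits of 6 libraries use the spread of those libraries alone. Depth was 19056916 to 25371321 counts, and with 3 against 3 libraries an exact two-sided permutation test cannot go below 0.1. No pair of replicate libraries agreed within counting noise. Promoters came from RefSeq and overlaps from GENCODE M21.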

Additional observations from a re-analysis of the deposited data

How the results depend on the processing

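*Fgf7* stayed lower with TGF-β1 in both genotypes, past the threshold, under each of the 9 alternatives tried and each omission of 1 library (adjusted p up to 0.028). Of the 10 genes, those called with TGF-β1 in control cells were 2 and became 1 with edgeR or DESeq2 on the 6 libraries of the comparison and with limma on FPKM, and 3 (*Fgf7*, *Fgf21*, and *Fgfr2*) with the length trend removed, with or without the replicate block. In Smad7-KO cells, 1 became 2 with DESeq2 size factors or DESeq2 on all libraries, 5 with edgeR (*Fgf2*, *Fgf7*, *Fgf18*, *Fgf21*, and *Fgfr2*) or DESeq2 on 6 libraries, 3 with the length trend removed, and 4 with the length trend removed together with the replicate block. After filtering, *Fgf10* and *Fgf16* had no tested value with limma or in the TGF-β1 fits on the 6 Smad7-KO libraries, nor *Fgf16* in the edgeR fit of the 6 stimulated libraries. The near-zero response of *Fgf18* in control cells changed sign to 0.0062 without the filter, 0.020 with limma, 0.20 with the length trend removed, and 0.21 with the length trend removed and the replicate block; the cause was not tested. Of the 40 other FGF-system genes, calls went, in Smad7-KO against control, from 10 to 2 (edgeR) and 5 (DESeq2) on 6 libraries without TGF-β1, and from 6 to 12 (edgeR, DESeq2, and length trend removed) and 10 (length trend with block) with it. For TGF-β1 in control cells, 4 became 2 (no filter), 1 (both fits on 6 libraries), 10 (length trend removed), and 9 (length trend with block). In Smad7-KO cells, 5 became 3 (no filter), 8 (DESeq2 on all libraries, length trend removed, and length trend with block), 10 (edgeR on 6 libraries), and 9 (DESeq2 on 6 libraries). Calls over the whole table moved as well: over the 9 alternatives, 660 to 5139 and 1500 to 4605 genes were called for Smad7-KO without and with TGF-β1. For TGF-β1, 391 to 2278 were called in control and 1263 to 3792 in Smad7-KO cells.

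Omission of 1 library at a time gave 1 to 4 members called for TGF-β1 in control and 1 to 3 in Smad7-KO cells. It gave 3 to 18 and 3 to 12 other genes called for Smad7-KO without and with TGF-β1, and 2 to 8 and 1 to 8 for TGF-β1 in control and Smad7-KO cells. Over the whole table, the same fits called 1535 to 7979 and 883 to 4465 genes for Smad7-KO without and with TGF-β1. For TGF-β1, they called 825 to 3449 in control and 985 to 2535 in Smad7-KO cells. The log2 fold change with TGF-β1 ran from -0.13 to 0.075 for *Fgf18* in control cells, from -0.087 to 0.36 for *Fgfr3* in control cells, and from -0.061 to 0.19 for *Fgfr3* in Smad7-KO cells.

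Replicate numbers did not pair the libraries: 1 of 18 same-numbered pairs had a correlation of deviations over 0.1 (range -0.357 to 0.524), and 5 of 12 libraries correlated best with one of their own number. With the replicate block, 2 and 1 members were called for TGF-β1 in control and Smad7-KO cells, and 8 and 4 other genes for Smad7-KO without and with TGF-β1. Scarce genes such as *Fgf16* limit what 3 libraries per condition can show.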
